A study of Mus musculus with 6 samples.

Results

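Classical striatal medium spiny-like neurons are here the nuclei of the mouse septal area that passed a rule on striatal genes, chiefly Rgs9 and Rarb. The rule allowed no more than 1 count each of 6530403H02Rik and Drd3, which mark other striatal-like nuclei in these data. The label fits only part of these nuclei, as described below. Members were chosen by their own raw counts of the rule's genes. A nucleus was a member when it had no fewer than 500 detected genes, no more than 5% mitochondrial counts, no UMI (unique molecular identifier, 1 counted RNA molecule) of Slc17a6, no fewer than 3 of Rgs9, no fewer than 2 of Rarb, and no more than 1 each of 6530403H02Rik and Drd3. The rule found 366 members among 54605 kept nuclei, out of 55537 deposited barcodes. They came from 6 libraries of wild type brain, all of 1 group, so no treatment or genotype was compared. The comparisons set the members against other nuclei of the same libraries, or set members with Drd1 UMIs against members with Drd2 UMIs. The labels do not state strain, age, sex, number of animals or how the septal area was cut out. Nothing says that the libraries came from separate animals, so p-values measure only the spread between libraries, which may be technical.

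Medium spiny neurons are the GABAergic projection neurons of the striatum. One class carries the dopamine D1 receptor (Drd1) with the peptide precursors Tac1 and Pdyn and forms the direct pathway to the midbrain and inner pallidum; the other carries the D2 receptor (Drd2) with Penk and the adenosine receptor Adora2a and forms the indirect pathway through the outer pallidum. Dopamine raises cAMP through D1 and lowers it through D2, and Rgs9 and Rarb, used in the rule, encode a brake on G-protein signalling of the striatum and a retinoic acid receptor of striatal neurons. The nucleus accumbens borders the septum, and the dorsal striatum lies across the lateral ventricle from it.

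Replicates 1 to 6 held 48, 87, 41, 81, 57 and 52 members. The share of kept nuclei that were members averaged 0.663 ± 0.120% (SD, n = 6 libraries), with a range of 0.502 to 0.831%. Exact Clopper-Pearson 95% intervals, which cover counting error only, ran from 0.371 to 0.665% in replicate 1, which had the lowest share, and from 0.667 to 1.03% in replicate 2, which had the highest. Libraries held 7150 to 11006 kept nuclei and 70183544 to 95175260 UMIs. Members were deep: their median UMI count was 13539 to 19371 per library, against 5175.5 to 6867 for all kept nuclei. The rule asks for a fixed number of UMIs and therefore finds deep nuclei more easily. With nuclei thinned to 5000 UMIs, which left out the 23315 kept nuclei below that depth, 130 of 31290 nuclei met the rule and the share averaged 0.395% over libraries. Pairs of libraries shared 0.162 to 0.433% of barcodes, and no member's barcode occurred in more than 1 library.

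The genes of the rule are a description here, with no test. Rgs9 averaged 255.9 ± 51.5 counts per 1000000 UMIs (CPM) and Rarb 1045 ± 225 CPM in members (SD, n = 6), against 18.99 ± 1.57 and 38.0 ± 6.61 CPM in lateral septum-like nuclei. The thresholds cut through continuous counts. At Rgs9, 143 members had exactly 3 UMIs, and 273 nuclei that met every other condition had 2. At Rarb, 45 members had 2 UMIs and 81 otherwise matching nuclei had 1. At 6530403H02Rik, 44 members had 1 UMI and 32 nuclei had 2, and at Drd3 the counts were 61 and 33. Only 9 nuclei missed the rule by a single Slc17a6 UMI, a marker of glutamatergic neurons.

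The label matched the levels of part of the members and went against those of another part. Leiden clustering of the 366 members alone gave 6 sub-clusters, each with nuclei of all 6 libraries. Sub-cluster 2 (86 nuclei) was led by medium spiny genes, and sub-cluster 4 (58 nuclei) had Drd1 among its leading genes. Their summed levels of 15 medium spiny markers were 8784 and 7760 CPM, against 2451 to 6395 CPM in the other sub-clusters. These markers include Rgs9 and Rarb of the rule. They also include Drd1, Drd2, Penk, Adora2a and Foxp1, which lead 1 of these 2 sub-clusters, so the sums are no test of the label. Both sub-clusters are called medium spiny-like as a description. Together they held 144 members, or 39.3%. Sub-clusters 1 and 3 held 167 members, or 45.6%. Sub-cluster 1 was led by genes of glia. Sub-cluster 3 had the highest summed level of 3 lateral septum markers, at 1466 CPM. Sub-clusters 5 (46 nuclei) and 6 (9 nuclei) had intermediate or striatal-like levels of Rarb with other leading genes. The genes that define a sub-cluster are no finding, since the clusters were drawn from them.

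Sub-cluster 2 was led by Drd2 at 435 CPM, Gucy1a1 (a subunit of soluble guanylate cyclase) at 379 CPM, Penk (enkephalin precursor) at 127.5 CPM and Adora2a at 77.6 CPM. A Drd2 UMI was found in 83 of its 86 nuclei, 96.5%. Foxp1, a transcription factor of striatal neurons, stood at 2575 CPM, and the median nucleus had Rarb at 2181 CPM. A single nucleus was called a doublet. Its summed level of 5 oligodendrocyte markers was 124 CPM and that of 5 astrocyte markers 101 CPM.

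Sub-cluster 4 was led by Gja5 (a connexin), Mlip, Trhr (receptor of thyrotropin-releasing hormone), Cntnap3, Prkch, Chd7, Oprk1 (kappa opioid receptor) and Drd1. Drd1 had 48.1 CPM, Tac1 66.6 CPM, Pdyn 41.9 CPM and Ebf1, a transcription factor of direct pathway neurons, 93.7 CPM. Drd2 had 1.23 CPM and Penk and Upb1 no UMI at all. The median Rarb was 2399 CPM, close to that of sub-cluster 2. A Drd1 UMI was found in 27 of its 58 nuclei, 46.6%, so most of its nuclei showed none. None was called a doublet.

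Sub-cluster 1 (87 nuclei) was led by Prr5l, St18, Slc1a3, Mertk and Bcas1, which are genes of oligodendrocytes and astrocytes. Called doublets made up 69 of its 87 nuclei, 79.3%, and the median depth was 22050 UMIs. Summed astrocyte markers reached 1342 CPM and oligodendrocyte markers 862 CPM. Its median Rarb was 557 CPM. Sub-cluster 3 (80 nuclei) was led by Ndst4, Cpa6, Il1rapl2, Hs3st2 and Ano1, and Trpc4, a channel of lateral septum neurons, stood at 576 CPM, against 24.1 CPM in sub-cluster 2. Its median depth was 24130 UMIs, its median Rarb only 158 CPM, and 4 nuclei were called doublets. These nuclei met the rule of 3 Rgs9 and 2 Rarb UMIs while their Rarb level was far below that of sub-clusters 2 and 4. Summed striatal interneuron markers were 253 CPM, against 30.3 CPM in sub-cluster 2. Elavl2 alone, 1 of the 8 markers and itself a leading gene of sub-cluster 3, gave 185 of the 253 CPM. Depth moves with this sub-cluster, and its part was not tested.

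Sub-cluster 5 was led by Pde11a, Slc17a8 (a vesicular glutamate transporter), Vipr2, Pkib, Npsr1, Gpr149 and Tshz2, with Foxp2 at 1252 CPM. It held 11 nuclei with Drd1 alone, 5 with Drd2 alone and 30 with neither, and stays unnamed. Sub-cluster 6 was led by Tshz1, Otof, Foxp2, Pcp4, Casz1 and Adarb2. Foxp2 reached 3993 CPM there, and Tshz1 507 CPM. Tshz1, Otof, Casz1 and Adarb2 are known markers of the eccentric medium spiny neurons, a minor class outside the direct and indirect pathways. It holds only 9 nuclei and also stays unnamed.

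**Figure D1:**
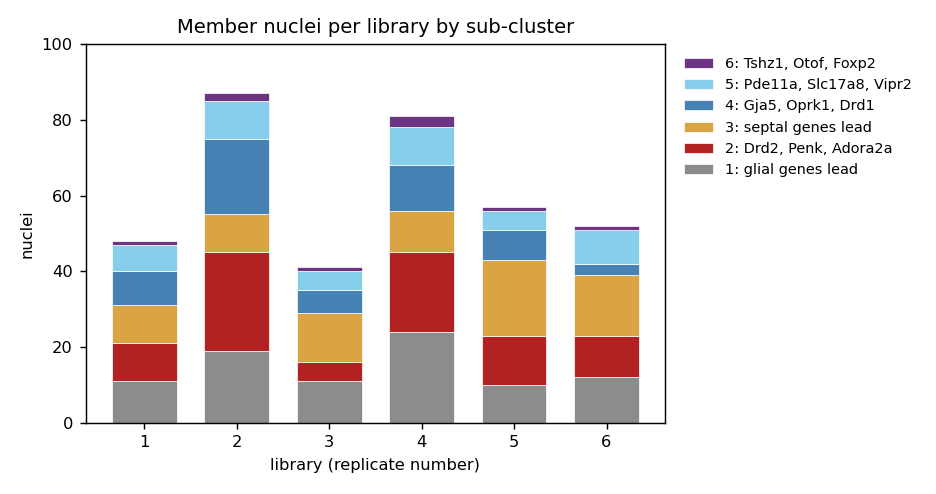
Bars give the number of member nuclei in each library (x axis, replicate number; y axis, nuclei), stacked by sub-cluster. Sub-cluster 1, led by glial genes, and sub-cluster 3, highest in summed lateral septum markers, are present in every library. In the key, 'septal genes lead' stands for that summed level. Sub-cluster 4 has as few as 3 nuclei in replicate 6.

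**Figure D2:**
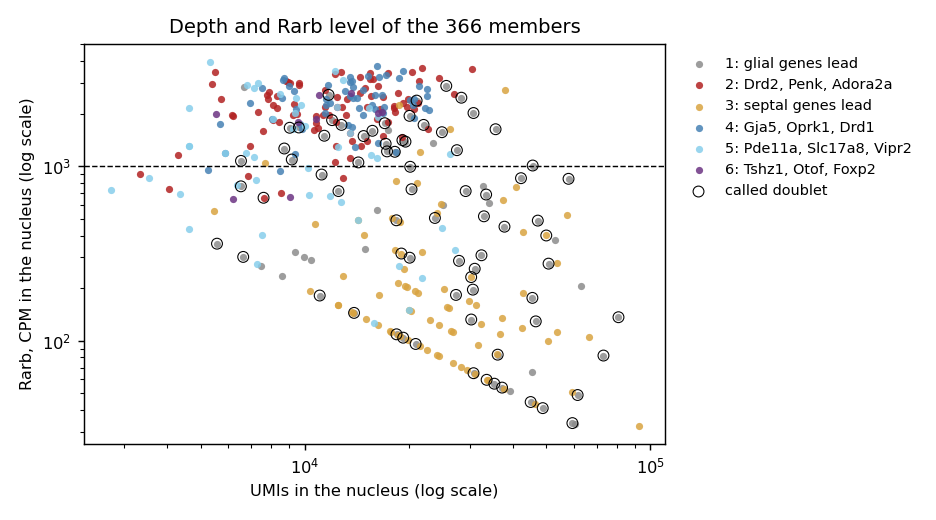
Each point is 1 of the 366 members, with its UMI count (x axis, log scale) and its Rarb level (y axis, CPM, log scale), coloured by sub-cluster, and called doublets are ringed. Sub-clusters 2 and 4 lie mostly above the dashed line at 1000 CPM, sub-cluster 3 lies mostly below it at high depth, and the straight lower edge is the rule's minimum of 2 Rarb UMIs.

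**Figure D3:**
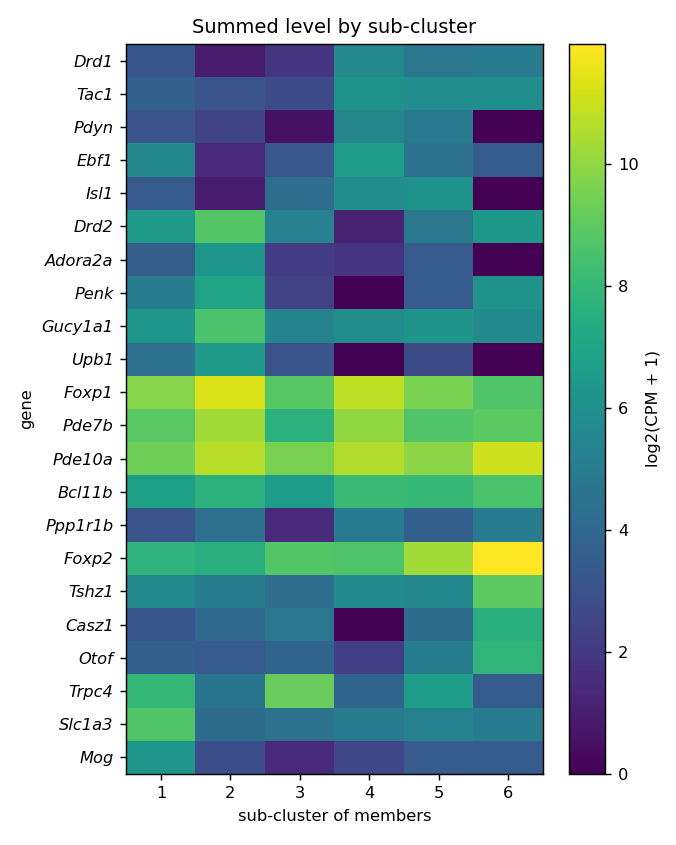
Colour gives the level, log2(CPM + 1), of 22 genes (rows) in the summed counts of each of the 6 sub-clusters (columns). Drd2, Penk, Adora2a and Upb1 are highest in sub-cluster 2, Drd1, Pdyn and Ebf1 in sub-cluster 4, Trpc4 in sub-cluster 3, Slc1a3 and Mog in sub-cluster 1, and Foxp2 and Tshz1 in sub-cluster 6.

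A line at Rarb of 1000 CPM, drawn after the data were seen, separated 206 Rarb-high members from 160 others. Of sub-clusters 2 and 4, 80 of 86 and 56 of 58 nuclei were Rarb-high, against 31 of 87 in sub-cluster 1 and 5 of 80 in sub-cluster 3. A Trpc4 UMI was found in 29.6% of Rarb-high and 74.4% of the other members, and in 32.2% of oligodendrocyte-like nuclei, which should lack it. The median depth per library of these 3 classes was 11452 to 16978, 19071 to 26917 and 4643.5 to 5192.5 UMIs. What the Trpc4 shares owe to depth was not tested. Adora2a was found in 33.98% of Rarb-high and 6.25% of the other members. The same results are therefore given below for all members and, where they differ, for Rarb-high members. Rarb is a gene of the rule, and the line leaves out most nuclei of sub-clusters 1 and 3. Rarb-high values are therefore a description and no separate support. Among all members 74 nuclei, 20.2%, were called doublets, against 11.8% of lateral septum-like nuclei.

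Dopamine receptors divided the members unevenly. Drd1 UMIs without Drd2 were found in 50 members (the Drd1 group), Drd2 without Drd1 in 158 (the Drd2 group), both in 8 and neither in 150. In replicates 1 to 6 the Drd1 group had 12, 12, 6, 11, 3 and 6 nuclei, and the Drd2 group had 17, 41, 17, 33, 26 and 24. The Drd1 group made up 24.2 ± 10.1% of single-receptor members (SD, n = 6; range 10.3 to 41.4%) and was below 50% in 6 of 6 libraries. The two-sided exact permutation test by sign flips against an even split gave p = 0.03125, the smallest that 6 libraries can give. Without any 1 library the share was 20.8 to 27.0% and the p of that test 0.0625, the smallest that 5 libraries can give. Among Rarb-high members it was 29.2%, and in nuclei thinned to 5000 UMIs 15.7%.

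This share counts nuclei with a UMI and is not a share of cell kinds. Nuclei of sub-cluster 4 that lacked both receptors numbered 30, while 3 nuclei of sub-cluster 2 lacked both. Sub-cluster 4 was 40.3% of sub-clusters 2 and 4 together. Drd2 UMIs also occurred in 30.4% of lateral septum-like nuclei and in 5.52% of oligodendrocyte-like nuclei, which should lack the gene (median depth per library 13396 to 16488 and 4643.5 to 5192.5 UMIs), and 67 of the 158 Drd2 group nuclei, 42.4%, lay in sub-clusters 1 and 3. Of the Drd1 group, 11 of 50 nuclei, 22%, lay there. For Drd1 the lateral septum-like share was 3.76% and the oligodendrocyte-like share 1.88%, against 15.8% in members. What the uneven share owes to detection was not tested.

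The sequences upstream of both receptor genes and of Tac1, the peptide gene that went with Drd1, are shown as the regulatory context of the genes that divide the members. They are RefSeq promoters of GRCm38.p6, 250 bases before to 50 after the start of the gene, 5′ to 3′ on the gene's strand, with capitals for the cAMP response element half-site TGACG or its reverse CGTCA. The coordinates are chr13:54055609-54055908 on the minus strand for Drd1, chr9:49340153-49340452 on the plus strand for Drd2, and chr6:7554811-7555110 on the plus strand for Tac1.
Drd1: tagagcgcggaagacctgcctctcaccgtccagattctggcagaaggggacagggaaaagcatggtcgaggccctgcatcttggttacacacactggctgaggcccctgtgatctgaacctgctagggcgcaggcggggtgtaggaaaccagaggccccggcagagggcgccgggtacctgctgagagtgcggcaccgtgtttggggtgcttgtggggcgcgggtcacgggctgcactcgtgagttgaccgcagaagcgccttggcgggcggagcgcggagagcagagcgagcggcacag
Drd2: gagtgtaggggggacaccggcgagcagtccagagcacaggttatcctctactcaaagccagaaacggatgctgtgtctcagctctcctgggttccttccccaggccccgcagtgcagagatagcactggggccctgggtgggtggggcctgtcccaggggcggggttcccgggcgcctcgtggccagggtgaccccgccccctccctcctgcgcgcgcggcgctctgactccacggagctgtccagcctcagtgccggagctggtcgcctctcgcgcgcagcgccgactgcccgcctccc
Tac1: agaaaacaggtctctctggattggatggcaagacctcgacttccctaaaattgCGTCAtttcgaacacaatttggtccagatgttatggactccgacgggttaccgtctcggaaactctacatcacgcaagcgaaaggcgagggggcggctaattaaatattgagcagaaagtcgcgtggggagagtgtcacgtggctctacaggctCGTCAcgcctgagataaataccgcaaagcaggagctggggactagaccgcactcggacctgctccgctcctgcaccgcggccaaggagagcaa
The GC content was 65.7% for Drd1, 70.3% for Drd2 and 54.0% for Tac1, against a median of 52.7% over 32851 promoters. Searched on both strands, the half-site occurred 2 times in the Tac1 window, 0 times in the Drd1 and Drd2 windows, and at least 1 time in 20.8% of all promoters. TATAAA on the gene's strand was in none of the 3 and in 8.3% of all promoters. A match is a description of letters only.

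Members with Drd1 and members with Drd2 differed in the textbook genes of both pathways. Tac1, Pdyn and Ebf1 rose in the Drd1 group, and Penk, Adora2a, Upb1, Gucy1a1, Ptprm, Adk and Grik3 fell. Raw UMIs were summed per library and group, and edgeR's quasi-likelihood test with the library as a block and Benjamini-Hochberg adjustment called a gene at an adjusted p under 0.05. The planned minimum of 10 nuclei per library and group left only 3 libraries, so a minimum of 3 nuclei, chosen after the data were seen, was used and kept all 6. Of 5897 genes tested, 98 (1.66%) were called, 51 (0.865%) higher and 47 (0.797%) lower in the Drd1 group. Drd1 and Drd2 defined the groups and were not tested.

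**Figure D4:**
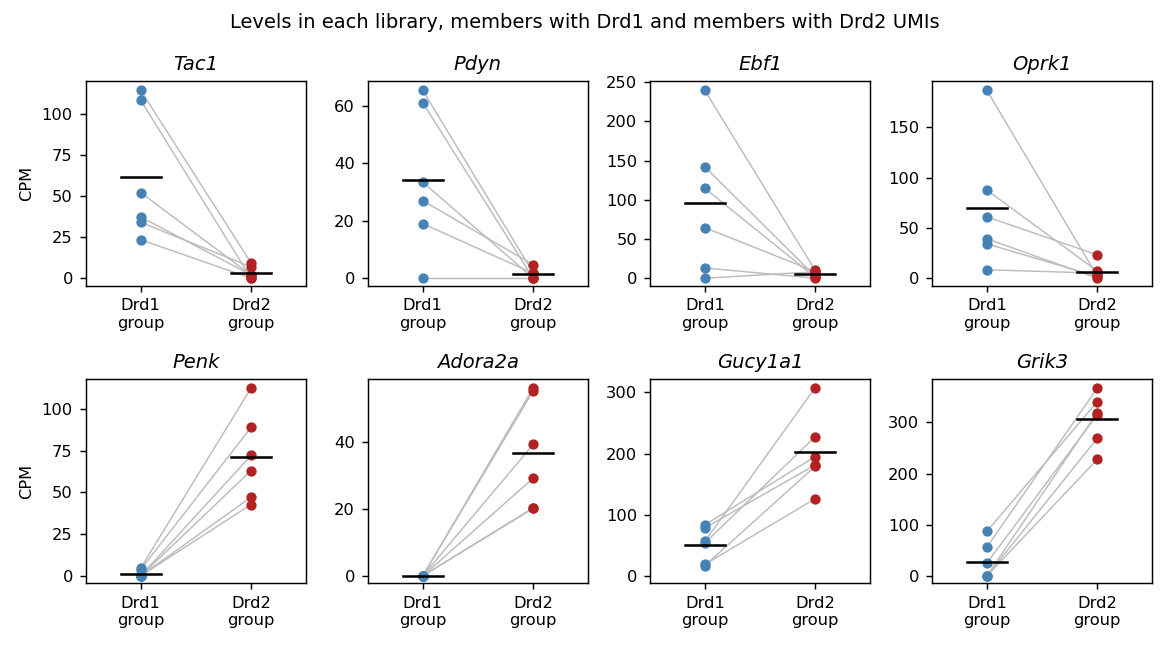
Points give the CPM of 8 genes in each of the 6 libraries (y axis) in the Drd1 group (left) and the Drd2 group (right) of members, lines join the same library, and bars mark means. Tac1 is higher in the Drd1 group in 6 of 6 libraries with no overlap, Ebf1 and Pdyn each have a library at 0 in the Drd1 group, and Penk, Adora2a, Gucy1a1 and Grik3 do not overlap in the other direction.

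The peptide genes moved in opposite directions. Tac1, the precursor of substance P, had a lowest, median and highest value of 23.5, 44.8 and 115 CPM in the Drd1 group, against 0, 1.99 and 9.43 CPM in the Drd2 group. No library overlapped, as in 1.48% of all genes tested, and the log2 difference was 3.88 ± 0.60 (SE; edgeR adjusted p = 0.000715). Pdyn, the dynorphin precursor, had 0, 30.2 and 65.3 CPM in the Drd1 group, against 0, 0.856 and 4.71 CPM in the Drd2 group, with 5 libraries higher and 1 at 0 in both (log2 difference 3.94 ± 0.81, edgeR adjusted p = 0.0109). Pdyn lost its call without called doublets, at an adjusted p of 0.067, and without replicate 1, at 0.096. Penk had 0, 0 and 4.70 CPM in the Drd1 group, 2 UMIs in all, against 42.8, 67.6 and 113 CPM in the Drd2 group (log2 difference -4.95 ± 0.53, edgeR adjusted p = 1.66e-05). Penk overlaps A830012C17Rik on the other strand, and the sources do not state how strand was used in counting.

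Of 7 tested genes of the direct pathway list, 3 rose and none fell in the Drd1 group, with a list median log2 difference of 1.85, against -0.02 over all genes tested. Of 8 tested genes of the indirect pathway list, none rose and 7 fell, with a median of -2.59. Among Rarb-high members 4 of 5 rose and 8 of 8 fell, against 2.32% of all genes higher and 2.49% lower in that fit. These lists were compiled as pathway markers, and part of them was known from earlier results of these data.

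Adora2a, the adenosine receptor that opposes D2 signalling, had no UMI in the Drd1 group in any library, against 20.2, 34.3 and 56.2 CPM in the Drd2 group. Set against 3 counts over the group as the floor, it was at least 11.2-fold lower in the Drd1 group. Upb1, a pyrimidine-breakdown enzyme, was also without a UMI in the Drd1 group, against 12.2, 42.4 and 77.8 CPM, and was at least 14.2-fold lower. Upb1 overlaps Gucd1 on the other strand. Their edgeR adjusted p-values were 0.00226 for Adora2a and 0.000715 for Upb1.

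Gucy1a1 had 16.7, 55.1 and 83.4 CPM in the Drd1 group, against 126, 188 and 308 CPM in the Drd2 group. The groups did not overlap (log2 difference -1.97 ± 0.26, edgeR adjusted p = 0.000117). Ptprm, a receptor tyrosine phosphatase, had 74.7, 106 and 324 CPM, against 217, 571 and 633 CPM in the Drd2 group. It was lower in 6 of 6 libraries although the ranges overlapped (log2 difference -1.88 ± 0.23, edgeR adjusted p = 8.7e-05). Grik3, a kainate receptor subunit, had 0, 12.5 and 87.2 CPM, against 228, 317 and 367 CPM in the Drd2 group (log2 difference -3.20 ± 0.50, edgeR adjusted p = 0.0203). Grik3 lost its call without replicate 1, at 0.1, and without replicate 3, at 0.069.

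Of 12 tested transcription factors of striatal neurons, 4 rose and 1 fell in the Drd1 group. Ebf1 had 0, 89.5 and 240 CPM in the Drd1 group, against 0, 5.33 and 9.93 CPM in the Drd2 group, and was higher in 5 of 6 libraries (log2 difference 4.13 ± 0.53, edgeR adjusted p = 0.0005; 0.31 under a looser member rule). Pbx3 had 360, 791 and 1383 CPM, against 104, 196 and 350 CPM, with no overlap (log2 difference 1.92 ± 0.21, edgeR adjusted p = 2.64e-05); it shares its locus with C79798 on the other strand, which rose as well. Foxp2 had 201, 480 and 875 CPM, against 97.7, 272 and 298 CPM (log2 difference 1.19 ± 0.19, edgeR adjusted p = 0.00102). The call of Foxp2 was lost without the library as a block (0.12), under the looser member rule (0.082) and under the stricter rule (0.77). Bcl11b, which guides medium spiny differentiation, was higher by 0.74 ± 0.18, but its edgeR adjusted p of 0.0395 became 0.19 among Rarb-high members and 0.14 without called doublets; it was also lost without replicates 1, 2, 3 or 5, at 0.096 to 0.23. Zfhx3 fell by 0.998 on the log2 scale (edgeR adjusted p = 0.00355) over all members and turned round to 0.97 (adjusted p = 0.028) among Rarb-high members; without called doublets its adjusted p was 0.12.

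Among the other genes with a large difference, Gja5 had 11.4, 28.1 and 91.4 CPM in the Drd1 group, against 0, 0.589 and 3.42 CPM in the Drd2 group (log2 difference 4.54 ± 0.88, edgeR adjusted p = 0.00604), and lost its call without replicate 2, at 0.095, or replicate 6, at 0.059. Oprk1 had 8.36, 50.1 and 187 CPM, against 0, 3.54 and 23.2 CPM (log2 difference 3.38 ± 0.63, edgeR adjusted p = 0.00468), with 6 of 6 libraries higher and a call lost without replicate 2, at 0.053. Cntnap3, a neurexin-family adhesion protein, had 87.2, 264 and 654 CPM, against 23.6, 28.2 and 75.3 CPM (log2 difference 2.77 ± 0.24, edgeR adjusted p = 5.74e-07). Chd7, a chromatin remodeller, had 160, 238 and 398 CPM, against 54.6, 78.4 and 89.6 CPM (log2 difference 1.64 ± 0.21, edgeR adjusted p = 8.7e-05). Neither Cntnap3 nor Chd7 overlapped between the groups.

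Among the large falls were also Ndst4, Hs3st2 and Il1rapl2, with log2 differences of -3.23, -2.90 and -2.81 (edgeR adjusted p = 0.000803, 0.0102 and 0.0315). These 3 genes lead sub-cluster 3, which holds 28 nuclei of the Drd2 group and 2 of the Drd1 group. The summed level of 3 lateral septum markers was 361 CPM in the Drd1 group (93.4 to 836), against 759 CPM in the Drd2 group (400 to 1113). Among Rarb-high members Il1rapl2 had a log2 difference of -2.23 (adjusted p = 5.4e-05), while Ndst4 and Hs3st2 did not pass the filter on low counts there. Over all members the call of Il1rapl2 was lost without called doublets (0.16) and without replicates 2, 3 or 4 (0.057 to 0.13), and that of Hs3st2 without called doublets (0.23) and without replicate 1 (0.057). Under the looser member rule Ndst4 had a log2 difference of -0.90 (adjusted p = 0.82). Summed oligodendrocyte markers were 254 CPM (117 to 524) in the Drd1 group, against 392 CPM (260 to 580) in the Drd2 group. Astrocyte markers were 332 CPM (93.4 to 692), against 539 CPM (117 to 704). Striatal interneuron markers were 52.6 CPM (23.5 to 93.4) with 3 of 8 genes at 0 in the Drd1 group, against 142.5 CPM (41.1 to 388) with 1 of 8 at 0 in the Drd2 group. Their part in the differences was not tested.

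Ano3, a calcium-activated scramblase, was the called channel gene with the smallest adjusted p, at 392, 474 and 512 CPM in the Drd1 group, against 235, 255 and 288 CPM in the Drd2 group (log2 difference 0.81 ± 0.16, edgeR adjusted p = 0.00688). It lost its call without replicate 1 (0.053), under the stricter member rule (0.099) and under the looser rule, where its log2 difference was 0.36 (0.27). Of 18 tested excitability channels 2 rose and none fell. None of 20 tested genes of dopamine and cAMP signalling and none of 11 GABA-A receptor subunits were called, and 1 of 21 glutamate receptors fell.

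Counts in this comparison depended on single libraries. Genes called higher in the Drd1 group numbered 32 without replicate 1, 22 without replicate 2 and 30 without replicate 5, and genes called lower numbered 31 without replicate 2. Among Rarb-high members 94 genes were called higher and 101 lower of 4050 tested, more calls from fewer nuclei. The 8 members with both receptors were too few to be set against the Drd1 group.

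Against lateral septum-like neurons, members were higher in dopamine, adenosine and cAMP signalling genes and lower in several glutamate receptors. Lateral septum-like here means no Slc17a6 UMI, no fewer than 3 UMIs of each of Trpc4 and Dgkg, and no more than 2 of Rgs9, which gave 11668 nuclei. Members rose in Adora2a, Drd1, Drd2, Penk, Tac1, Ppp1r1b and Pde7b. Of 18755 genes tested, 3866 (20.6%) were called by edgeR's quasi-likelihood test, 1810 (9.65%) higher and 2056 (11.0%) lower in members. With RLE size factors the counts were 2059 higher and 1540 lower, and with DESeq2 1783 and 1175, so the balance between higher and lower depends on scaling. Members were not a pure class: summed astrocyte markers were 524 ± 131 CPM and oligodendrocyte markers 375 ± 138 CPM in members, against 370 ± 37.9 and 241 ± 24.2 CPM in lateral septum-like neurons (SD, n = 6), and no marker of either list was at 0. The summed level of 3 lateral septum markers was 766 CPM (522 to 1075) in members and 259 CPM in Rarb-high members. It was 2004 CPM (1963 to 2053) in lateral septum-like neurons. Counts were summed by UMI, so deeper nuclei weighed more. The 160 members that were not Rarb-high held 4171105 of the members' 7093614 UMIs, and the 206 Rarb-high members held 2922509. The part of nuclei with glial or lateral septum markers in each difference was not tested beyond the values given for Rarb-high members.

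**Figure D5:**
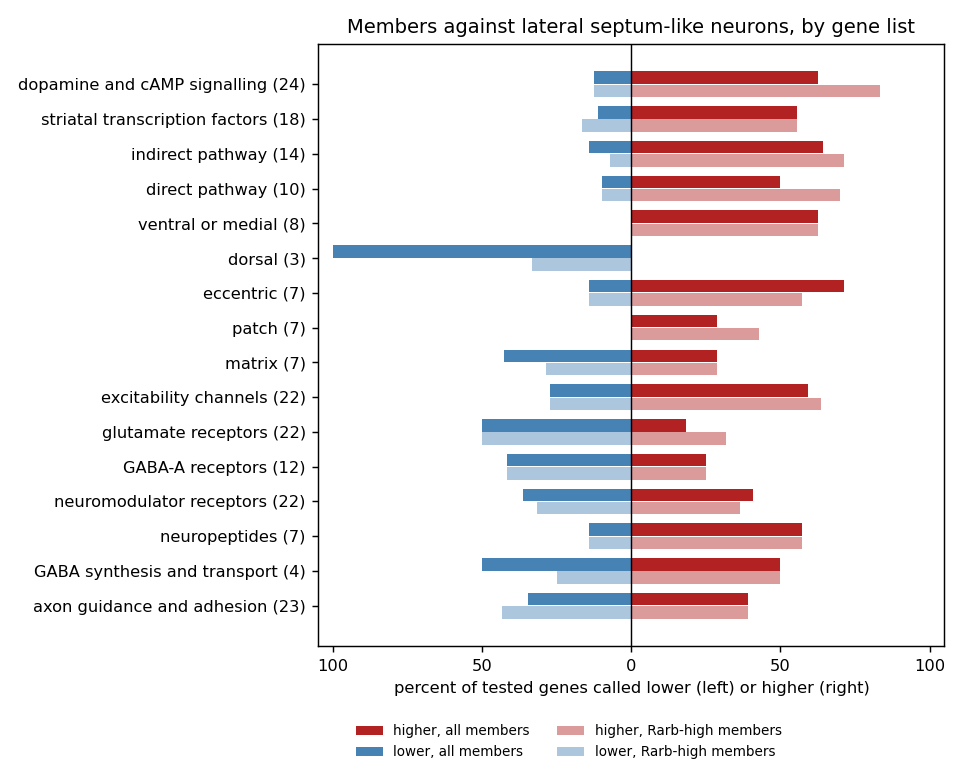
Bars give the percent of the tested genes of each list (number in brackets) called higher (right) or lower (left) in members than in lateral septum-like neurons, for all members (dark) and Rarb-high members (pale). The dopamine and cAMP list leans to higher, with 15 higher and 3 lower of 24, and the glutamate receptor list to lower, with 4 higher and 11 lower of 22.

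Both dopamine receptors were higher in members. Drd1 had a lowest, median and highest value of 4.15, 11.9 and 16.8 CPM in members, against 2.08, 2.48 and 2.76 CPM in lateral septum-like neurons (log2 difference 2.15 ± 0.27, edgeR adjusted p = 1.76e-13). Drd2 had 74.2, 107 and 138 CPM, against 30.1, 33.8 and 37.0 CPM (log2 difference 1.64 ± 0.09, edgeR adjusted p = 2.57e-72). Neither receptor overlapped between the classes, as in 11.7% of all genes tested. Among Rarb-high members, which leave out most of sub-cluster 3, the log2 differences were 3.22 and 2.61.

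Adora2a had 8.25, 15.8 and 31.3 CPM in members, against 0.187, 0.412 and 0.514 CPM in lateral septum-like neurons (log2 difference 5.34 ± 0.37, edgeR adjusted p = 3.65e-43). Its share of nuclei with a UMI was 21.9% in members, against 0.523% in lateral septum-like and 0.692% in oligodendrocyte-like nuclei. Penk had 17.4, 33.3 and 47.3 CPM, against 3.24, 3.99 and 5.36 CPM (log2 difference 2.90 ± 0.17, edgeR adjusted p = 8e-58). Tac1 had 6.39, 18.9 and 32.6 CPM, against 1.15, 1.43 and 2.24 CPM (log2 difference 3.47 ± 0.27, edgeR adjusted p = 2.64e-32). Pdyn and Cartpt rose too, by log2 differences of 4.01 and 2.01, so 4 of 7 tested peptide genes rose. The call of Nts, which was lower at a log2 difference of -0.63 (edgeR adjusted p = 0.0241), was lost with RLE (0.051), with DESeq2 (0.16), without the block (0.46), without replicates 1, 3 or 6 (0.077 to 0.21) and in thinned nuclei (0.86), and its sign turned round under the looser rule.

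Of the 24 genes of dopamine and cAMP signalling, 15 rose and 3 fell in members, with a median log2 difference of 0.59, against -0.03 over all genes tested. Among Rarb-high members 20 rose and 3 fell, where 9.44% of all 17665 genes tested were called higher and 12.9% lower. Pde7b, a cAMP phosphodiesterase, had 526, 584 and 618 CPM in members, against 87.7, 88.9 and 97.4 CPM in lateral septum-like neurons (log2 difference 2.63 ± 0.07, edgeR adjusted p = 2.62e-253). Ppp1r1b, the DARPP-32 phosphoprotein that integrates dopamine signals, had 4.12, 9.52 and 16.9 CPM, against 0.763, 0.898 and 1.12 CPM (log2 difference 3.41 ± 0.36, edgeR adjusted p = 1.01e-19). A Ppp1r1b UMI was found in 16.4% of members, against 1.45% of lateral septum-like and 0.846% of oligodendrocyte-like nuclei. Pde10a, Adcy5 and Gnal, all of the cAMP signalling chain, rose by log2 differences of 0.82, 0.97 and 0.60 (edgeR adjusted p of 1.06e-11 or less). Rasgrf2, Ptpn5 and Prkcb fell by 0.69, 0.56 and 0.44.

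Of 18 striatal transcription factors 10 rose and 2 fell. Foxo1 had 80.5, 112 and 134 CPM in members, against 15.8, 18.6 and 20.6 CPM in lateral septum-like neurons (log2 difference 2.56 ± 0.09, edgeR adjusted p = 9.19e-123). Foxp1 had 847, 1110 and 1342 CPM, against 348, 365 and 383 CPM (log2 difference 1.51 ± 0.07, edgeR adjusted p = 1.5e-71). Bcl11b had 124, 156 and 175 CPM, against 67.6, 72.2 and 75.6 CPM (log2 difference 1.05 ± 0.07, edgeR adjusted p = 1.29e-40). All 3 stood apart between the classes in every library, and Rxrg, Meis2, Pbx3, Ikzf2, Foxp2, Ikzf1 and Six3 made up the other rises. Sp9 and Zfhx3 fell by 1.22 and 0.89.

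Channels and transmitter receptors moved in both directions. Of 22 excitability channels 13 rose and 6 fell. Kcnq5, a subunit of the M-type potassium current, had 2431, 2887 and 3586 CPM in members, against 1124, 1174 and 1290 CPM in lateral septum-like neurons (log2 difference 1.22 ± 0.06, edgeR adjusted p = 2.51e-75). Kcnj3, a G-protein-gated potassium channel subunit, had 136, 168 and 229 CPM, against 387, 407 and 424 CPM (log2 difference -1.32 ± 0.07, edgeR adjusted p = 3.56e-68), and among Rarb-high members its difference was -3.23. Inward rectifier subunits of another family, Kcnj2 and Kcnj4, which set the low resting potential of medium spiny neurons, rose.

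Of 22 glutamate receptor genes 4 rose and 11 fell, and among Rarb-high members 7 rose and 11 fell, against 9.44 and 12.9% of all genes. Gria1, an AMPA receptor subunit, had 1509, 1696 and 1948 CPM in members, against 2806, 2901 and 3089 CPM in lateral septum-like neurons (log2 difference -0.84 ± 0.06, edgeR adjusted p = 3.98e-38). Grm3, a metabotropic receptor that glia also express, had 396, 503 and 703 CPM, against 145, 166 and 191 CPM (log2 difference 1.57 ± 0.09, edgeR adjusted p = 2.92e-16). The rise of Grm3 was 1.95 without called doublets and 2.20 among Rarb-high members. Of 12 GABA-A receptor subunits 3 rose and 5 fell. Gad1 and Slc32a1, of GABA synthesis and vesicular loading, fell by 0.28 and 0.62 while Gad2, the other GABA-synthesizing enzyme, rose by 0.33; the fall of Gad1 was not called among Rarb-high members (adjusted p = 0.44) or without called doublets (0.098), nor that of Slc32a1 without replicate 2 (0.066) or by DESeq2 (0.058).

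Of 22 neuromodulator receptors 9 rose and 8 fell in members. Hcrtr2, an orexin receptor, had 24.7, 35.9 and 57.3 CPM in members, against 5.58, 6.20 and 7.80 CPM in lateral septum-like neurons (log2 difference 2.51 ± 0.15, edgeR adjusted p = 3.3e-55). Cnr1, the CB1 cannabinoid receptor, had 13.2, 22.2 and 37.4 CPM, against 47.4, 48.8 and 55.2 CPM (log2 difference -1.16 ± 0.12, edgeR adjusted p = 4.23e-19). Cnr1 is also 1 of 3 genes listed for the dorsal striatum, and the other two, Coch and Gpr155, were lower, with log2 differences of -1.21 and -0.24 (edgeR adjusted p = 0.0185 and 0.0367). Only Cnr1 kept its call among Rarb-high members. Coch also lost its call by DESeq2 (0.09) and without replicates 3 or 6 (0.11 and 0.081), and Gpr155 with RLE (0.15), by DESeq2 (0.26), without the block (0.073) and without replicates 1, 4, 5 or 6 (0.068 to 0.21).

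Genes listed for the ventral or medial striatum went the other way, with 5 of 8 higher and none lower. Stard5, a sterol-binding protein, had 73.2, 107 and 123 CPM in members, against 2.95, 3.68 and 5.47 CPM in lateral septum-like neurons (log2 difference 4.66 ± 0.12, edgeR adjusted p = 1.52e-253). Crym, a thyroid hormone-binding protein enriched in the medial striatum, had 17.3, 28.9 and 45.7 CPM, against 2.25, 3.08 and 3.50 CPM (log2 difference 3.19 ± 0.20, edgeR adjusted p = 5.4e-54). Both lists were compared with lateral septum-like neurons and not with dorsal striatum, which was not analysed here. Of the eccentric list 5 of 7 rose and 1 fell, of the patch list 2 of 7 rose, and of the matrix list 2 of 7 rose and 3 fell.

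The other large rises were Sh3rf2, Prkch, Jcad, Car12, Trhr, Ankrd33b and Stk32a, by log2 differences of 3.46 to 5.78. Prkch, a protein kinase C, had 61.8, 93.2 and 145 CPM in members, against 5.57, 6.40 and 7.004 CPM in lateral septum-like neurons (log2 difference 3.92 ± 0.11, edgeR adjusted p = 1.49e-116). Trhr had 35.6, 59.2 and 69.1 CPM, against 3.53, 4.44 and 5.13 CPM (log2 difference 3.59 ± 0.15, edgeR adjusted p = 1.11e-117). The large falls were Ndnf, Igfbpl1, Met, Ntf3, Col6a3, Dach2, Stac2 and Adamtsl1, with log2 differences of -2.83 to -2.18. Dach2 lost its call without replicates 2, 4 or 6 (0.064 to 0.084). Met, the hepatocyte growth factor receptor, had 1.03, 5.05 and 10.02 CPM in members, against 26.7, 28.1 and 32.5 CPM (log2 difference -2.40 ± 0.19, edgeR adjusted p = 7.14e-28), and its log2 difference was -4.40 among Rarb-high members.

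Of 23 axon guidance and adhesion genes 9 rose and 8 fell. Robo1, Sema3e and Slit3 rose by log2 differences of 0.69, 1.66 and 1.51, and Epha6, Cdh11 and Cdh8 fell, with log2 differences of -0.87, -1.24 and -0.77. Of 13 immediate early genes 1 rose and of 20 cholesterol synthesis genes 1 rose, with none lower. Over all genes tested 9.65% were higher and 11.0% lower, and lists this small cannot be told from those shares.

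The next comparison set members against the 311 nuclei that met the same conditions but had 2 or more 6530403H02Rik UMIs. Both classes were chosen by the same Rgs9 and Rarb conditions. Members were lower in Tshz1, Otof, Casz1, Adarb2, Foxp2, Rxrg and Drd1 and higher in Htr2c and Trhr. Of 10372 genes tested, 252 (2.43%) were called by edgeR's quasi-likelihood test, 92 (0.887%) higher and 160 (1.54%) lower in members. Of 6 tested genes of the eccentric list none was higher and 5 were lower in members, with a median log2 difference of -1.72, against 0.001 over all genes. Striatal transcription factors were none higher and 5 lower of 17. Adarb2 lost its call without replicates 1, 2 or 3 (0.058 to 0.076).

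Tshz1, a zinc finger transcription factor, had 24.9, 41.9 and 68.6 CPM in members, against 140.5, 188 and 225.5 CPM in the 6530403H02Rik nuclei (log2 difference -2.10 ± 0.12, edgeR adjusted p = 1.35e-08). Otof, the vesicle protein otoferlin, had 2.06, 15.2 and 27.7 CPM, against 47.9, 74.0 and 80.0 CPM (log2 difference -2.20 ± 0.22, edgeR adjusted p = 6.22e-05). Foxp2 had 330, 424 and 570 CPM, against 1421, 1594 and 2144 CPM (log2 difference -1.996 ± 0.12, edgeR adjusted p = 7.5e-08). None of the 3 overlapped, as in 1.58% of all genes tested, and each kept its call among Rarb-high nuclei of both classes.

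Mdfic, a transcriptional modulator, had 0, 2.28 and 4.81 CPM in members, against 14.6, 26.9 and 40.6 CPM in the 6530403H02Rik nuclei (log2 difference -3.85 ± 0.39, edgeR adjusted p = 2.14e-05). Drd1 had 4.15, 11.9 and 16.8 CPM, against 18.2, 28.2 and 37.2 CPM (log2 difference -1.30 ± 0.25, edgeR adjusted p = 0.00894), but was not called among Rarb-high nuclei (-0.57, adjusted p = 0.25) or without replicate 2 (adjusted p = 0.071). A Drd1 UMI was found in 15.8% of members, against 36.7% of the 6530403H02Rik nuclei. Htr2c, a serotonin receptor, had 721, 837 and 876 CPM, against 260, 353 and 792 CPM in the 6530403H02Rik nuclei, where replicate 3 was the highest (log2 difference 1.04 ± 0.17, edgeR adjusted p = 0.011). Htr2c lost its call without replicate 1 (0.057), replicate 5 (0.069) or the library as a block (0.053).

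Counts in this comparison moved with the choice of libraries and nuclei. Genes called higher and lower in members were 49 and 85 without replicate 1, 41 and 87 without replicate 2, 149 and 183 without replicate 3, 51 and 102 without replicate 5, and 47 and 98 without replicate 6. Among Rarb-high nuclei of both classes they were 160 (2.26%) and 195 (2.75%) of 7083 tested. Without called doublets they were 204 and 224, and without the library as a block 60 and 130. Members held 20.2% called doublets, against 19.6% of the 6530403H02Rik nuclei, and 56.3% were Rarb-high, against 67.2%.

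Against the 286 nuclei with 2 or more Drd3 UMIs and otherwise the same Rgs9, Rarb and Slc17a6 conditions, members were higher in the indirect pathway. The Drd3 nuclei could have any 6530403H02Rik count, so the classes can differ in that gene of the rule as well. Drd3 is a D2-type receptor known from the islands of Calleja and ventral striatum. Of 10296 genes tested, 410 (3.98%) were called by edgeR's quasi-likelihood test, 135 (1.31%) higher and 275 (2.67%) lower in members. Of 11 tested genes of the indirect pathway list 7 were higher and none lower, with a median log2 difference of 1.04, against 0.003 over all genes. Of 9 of the direct pathway list none was higher and 2, Isl1 and Drd1, were lower. Drd1 lost its call by DESeq2 (0.057) and without replicates 2, 5 or 6 (0.076 to 0.083). This comparison and the 2 before it share the members' counts and are not independent of each other.

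Drd2 had 74.2, 107 and 138 CPM in members, against 0, 23.0 and 47.6 CPM in the Drd3 nuclei (log2 difference 2.13 ± 0.31, edgeR adjusted p = 0.00704). Penk had 17.4, 33.3 and 47.3 CPM, against 2.35, 5.78 and 10.7 CPM (log2 difference 2.53 ± 0.22, edgeR adjusted p = 7.96e-07). Adora2a had 8.25, 15.8 and 31.3 CPM, against 0, 1.28 and 4.76 CPM (log2 difference 3.34 ± 0.38, edgeR adjusted p = 2.5e-05). The classes did not overlap in any of the 3, as in 2.18% of all genes tested. Among Rarb-high nuclei of both classes the differences were 4.66 for Drd2, 3.98 for Penk and 4.91 for Adora2a.

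The falls named here came from several kinds of genes. Pkib, an inhibitor of protein kinase A, had 9.31, 19.6 and 33.0 CPM in members, against 74.6, 148 and 186 CPM in the Drd3 nuclei (log2 difference -2.91 ± 0.16, edgeR adjusted p = 8.57e-10). Npy1r, a neuropeptide Y receptor, had 0, 3.996 and 6.18 CPM, against 17.2, 29.0 and 39.6 CPM (log2 difference -2.90 ± 0.39, edgeR adjusted p = 0.000455). Isl1, a transcription factor of direct pathway neurons, had 15.5, 19.5 and 26.3 CPM, against 31.1, 48.5 and 70.0 CPM (log2 difference -1.30 ± 0.17, edgeR adjusted p = 8.12e-05). Isl1 was not called among Rarb-high nuclei (-0.87, adjusted p = 0.12). Lrrc38, Npsr1 and Ptpn14 were the other large falls, with log2 differences of -3.26, -2.64 and -2.46. Npy1r (-2.30, edgeR adjusted p = 0.05) and Npsr1 (-2.95, edgeR adjusted p = 0.11) were not called among Rarb-high nuclei either.

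Among Rarb-high nuclei of both classes, which left 5 libraries, 44 genes (0.691%) were called higher and 82 (1.29%) lower of 6369 tested. Genes called higher numbered 82 without replicate 2 and 89 without called doublets, and genes called lower numbered 175 without replicate 5 and 177 without called doublets. Called doublets were 20.2% of members, against 30.1% of the Drd3 nuclei. Summed oligodendrocyte markers were 375 ± 138 CPM (232 to 629) in members, against 669 ± 193 CPM (466 to 957) in the Drd3 nuclei, and astrocyte markers 524 ± 131 CPM (334 to 676), against 688 ± 174 CPM (488 to 965; SD, n = 6), with no marker of either list at 0. Their part in the differences was not tested.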

How the data were processed

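RNA of single nuclei from 6 septal area libraries (the library titles speak of nuclei, the protocol text of cells) was deposited by the authors as raw UMI counts per gene and barcode, for 32285 features. Per the submitters' processing notes the libraries were made with a Chromium 3' kit of version 3 and processed with Cell Ranger 3.1.0 and STAR, while the file headers name Cell Ranger 5.0.0. No source used here names the genome build, the use of strand or any doublet removal. The members and all gene lists were chosen with earlier results of these data known.

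From these deposited counts, nuclei with under 500 genes or over 5% mitochondrial counts were left out. Doublets were called within each library from simulated doublets (30 components, 50 neighbours) and kept in the main values, with results also given without them; 4205 kept nuclei were called, and 50.29 to 61.46% of simulated doublets passed the same threshold. Members were clustered with scanpy 1.11.5 and leidenalg 0.10.2 (2000 genes, 30 components, 20 neighbours, resolution 0.5). Raw counts were summed per library and class, and edgeR 4.0.16 in R 4.3.3 was fitted with TMM scaling, filterByExpr and the library as a block, with Benjamini-Hochberg adjustment over all genes tested. The library is a true pairing, since both classes compared come from the same library. A standard error is the log2 difference divided by the square root of the F statistic. Genes used to choose a class were left out of its tests. The fit was tested on simulated data. DESeq2 1.42.0, RLE scaling, no filter, no block, thinning to 5000 UMIs, other thresholds and leaving out each library were alternatives. The minimum of 3 nuclei per library for the Drd1 and Drd2 groups and the Rarb line at 1000 CPM were chosen after seeing the data.

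Genes are named where they lead a list by adjusted p, or are among the largest differences past 0.05 with the same direction in every library and 20 CPM or more in the higher class. Named outside that rule, after their values were seen, were the genes that lead a sub-cluster, Adk in the receptor comparison, and Pde10a, Adcy5, Gnal, Kcnj2, Kcnj4, Meis2, Pbx3, Ikzf2, Foxp2, Ikzf1 and Six3 against lateral septum-like neurons. Of 152 named genes looked up, 71 overlap a gene on the other strand in the GENCODE annotation. Intervals and floors cover counting error only. Some results on single genes are not reported here.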

Additional observations from a re-analysis of the deposited data

Results flagged for a closer look

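In 109 groups of 6 library values, 6 had a single library whose gap to the nearest other library exceeded Dixon's 95% critical share of the whole range, and chance gives about 1 in 20 such groups. Sub-cluster 6 made up 3.704% of the members of replicate 4, against 1.754 to 2.439% in the other libraries. In the Drd2 group, Oprk1 had 23.16 CPM in replicate 1, against 0 to 7.07 CPM in the others, and Bcl11b had 217.9 CPM in replicate 5, against 109.2 to 143.8 CPM. In lateral septum-like neurons Pde7b had 97.35 CPM in replicate 4, against 87.72 to 89.58 CPM. In the 6530403H02Rik nuclei of replicate 3, Htr2c had 792.2 CPM, against 259.8 to 398.6 CPM in the other libraries, and Otof had 47.95 CPM, against 68.28 to 79.95 CPM.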

How the results depend on the processing

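The share of nuclei that were members was 1.64% under the looser rule, 0.267% under the stricter rule, 0.395% in thinned nuclei and 0.366% for Rarb-high members. The Drd1 share stayed below 50% under every alternative run, at 11.4 to 29.2%, and at 20.8 to 27.0% when each library was left out. Rarb-high alternatives were chosen after seeing the data.

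For the Drd1 group against the Drd2 group, genes called higher were 94 in Rarb-high members, 95 under the looser rule, 12 under the stricter rule, 29 in thinned nuclei and 22 to 75 without 1 library. Genes called lower were 123 without a filter on low counts, 101 in Rarb-high members, 85 under the looser rule, 21 under the stricter rule and 31 to 70 without 1 library. Against lateral septum-like neurons 1058 were higher in thinned nuclei and 1175 lower by DESeq2. Against the 6530403H02Rik nuclei, genes higher were 52 by DESeq2, 252 without a filter, 160 in Rarb-high nuclei, 186 in thinned nuclei, 204 without called doublets and 41 to 149 without 1 library. Genes lower were 106 by DESeq2, 254 without a filter and 85 to 183 without 1 library. Against the Drd3 nuclei, genes higher were 82 by DESeq2, 291 without a filter, 44 in Rarb-high nuclei, 299 in thinned nuclei, 89 without called doublets and 82 to 131 without 1 library. Genes lower were 82 in Rarb-high nuclei, 177 without called doublets and 175 to 287 without 1 library.

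Without the library as a block (no replicate block), calls higher and lower were 54 and 36 for the Drd1 group, 1966 and 1809 against lateral septum-like neurons, 60 and 130 against the 6530403H02Rik nuclei, and 125 and 257 against the Drd3 nuclei.

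The log2 difference turned round for Zfhx3 between the Drd1 and Drd2 groups (0.97 in Rarb-high members, 0.41 under the stricter rule), for Brinp3 (0.05) and Nts (0.15) under the looser rule and Grik3 (0.11 in Rarb-high members) against lateral septum-like neurons, and for Grin3a (-0.036 in Rarb-high nuclei) against the 6530403H02Rik nuclei. The cause was not tested. The split at 2 UMIs left 3 libraries and could not be fitted, nor could the 8 nuclei with both receptors with any of their alternatives. With 3 to 12 nuclei per library in the Drd1 group, depth limits which low genes could be tested.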

Other observations

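Of the 8 members with both dopamine receptors, 2 were Rarb-high and 1 was called a doublet, and they lay in sub-clusters 1, 2, 3 and 6. Of the 150 members with neither receptor, 56 were Rarb-high and 29 were called doublets. Among the Rarb-high members, 170 lay outside sub-clusters 1 and 3.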
